A study of Mus musculus with 4 samples.

Results

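The ubiquitin-specific proteases (USPs) and the HECT ubiquitin ligases are the subject here, as transcripts recovered with the m6A reader YTHDF2 from newborn mouse retina. Members were chosen by gene symbol: every gene in the count table named Usp with a number, the Herc, Hectd, Nedd4 and Smurf genes, and Huwe1, Itch, Wwp1, Wwp2, Hace1, Trip12, Ube3a, Ube3b and Ube3c. These were 72 of the 52550 genes in the table, 50 USPs and 22 HECT ligases. Of them, 67 (45 USPs and all 22 HECT ligases) had enough counts to be tested.

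All libraries came from the retina of wild type C57BL/6 mice at postnatal day 0 (P0), dissociated with papain, with no other allele or agent. RNA bound to YTHDF2 was precipitated with an anti-YTHDF2 antibody (RNA immunoprecipitation, RIP) and sequenced beside the input RNA, in 2 RIP and 2 input libraries that the study describes as biological replicates. Summed over genes, the inputs held 39499994 and 36236531 counts and the RIP libraries 19530226 and 24903212. Most of these fell outside protein-coding genes, and protein-coding genes took 4088424 and 4175459 input counts and 2203538 and 2083594 RIP counts. The members together drew 12094 and 15896 counts as input, beside 17440 and 15800 after RIP. The comparison asks which transcripts are more abundant, relative to the rest, in the RIP than in the input. It does not measure how much of a transcript is bound, and libraries of a control IgG precipitation were not analysed here. All 7 progenitor markers listed for the check of the tissue were at 1 FPKM (fragments scaled to gene length and library size) or more in both inputs, as were 4 of 5 photoreceptor precursor markers, 3 of 7 of retinal ganglion cells and 2 of 6 of amacrine and horizontal cells. Summed ganglion cell marker levels were 29.3 and 21.8 FPKM as input against 9.40 and 7.20 after RIP, where Sncg alone accounted for most of the input level. Photoreceptor precursor markers summed to 25.0 and 24.4 FPKM as input against 42.6 and 35.5 after RIP. The largest part of that rise was Crx, at 8.33 and 8.72 FPKM as input and 22.0 and 16.5 after RIP. Prdm1 and Nrl were also higher in both RIP libraries, whereas Otx2 was lower in both and Rcvrn overlapped. The endothelial list, almost wholly Kdr, summed to 2.72 and 3.10 FPKM against 8.38 and 6.47. Lens markers summed to at most 0.0353 FPKM and pigment epithelium markers to at most 0.0367, with Cryaa, Crygd, Rpe65, Tyr and Pmel at 0 in every library. Because whole retina was used, fewer cells of a type and less RNA per cell cannot be told apart in the input levels. Nor do the values show which cell types held the transcripts recovered in the RIP. The part of the cell mixture in the results was not tested.

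Ubiquitin is attached to proteins by a chain of enzymes that ends in a ligase and is taken off again by deubiquitinases. HECT ligases receive ubiquitin on a cysteine of their own HECT domain before they pass it to a substrate, and the USPs, the largest family of deubiquitinases, use a catalytic cysteine to cut it off. In neurons these enzymes act on receptors, guidance and endosomal proteins, histones and the proteasome, and loss of the HECT ligase Ube3a in neurons underlies Angelman syndrome. YTHDF2 binds mRNA that carries m6A, a methylated adenosine often found in the sequence GGACT and near the end of the coding region, and promotes decay of that mRNA.

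The windows below show the GGACT nearest to the end of the coding region in the longest protein-coding transcript of 5 members: the pair of test-passing genes that hold the motif, the member with the most copies, and both members with the clearest lower values in the RIP among those with over 50 counts in each library. Each is written 5′ to 3′ on the strand of the transcript, with the motif in capitals (GRCm38, GENCODE M21).
Usp31: tgaggataagGGACTgtccttcttt
Ube3c: ggaggaactgGGACTgaactttact
Herc2: acagcagtgaGGACTcagataatga
Usp8: tcagtccaaaGGACTttaaagtcac
Ube3a: acctgttggaGGACTaggaaaattg

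All 5 windows lie in coding sequence. The Usp31 window is at chr7:121648550-121648574 on the minus strand, in exon 16 of 16 and 380 nt before the end of the coding region. On the plus strand, the Ube3c window is at chr5:29658368-29658392 (exon 19 of 23, 602 nt before the end), that of Herc2 at chr7:56231053-56231077 (exon 93 of 93, 69 nt before), that of Usp8 at chr2:126752358-126752382 (exon 15 of 19, 813 nt before) and that of Ube3a at chr7:59303749-59303773 (exon 12 of 13, 173 nt before). Herc2 held 23 copies of GGACT, Usp31 held 13, Usp8 held 5, Ube3c held 4 and Ube3a held 1. The motif was searched on the transcript strand alone. Nedd4, the third gene to pass the adjusted test, held none. At least 1 copy stood in 65 of the 67 members (97.0%), against 93.1% of all 11953 protein-coding transcripts tested and 99.7% of those longer than the members' median. Within 400 nt of the coding end, GGACT was present in 9 of the 19 enriched members (47.4%), in 25 of the 48 others (52.1%) and in 59.6% of all protein-coding transcripts tested. A match shows the letters only, not that the adenosine is methylated.

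In the main fit, which makes no allowance for transcript length, transcripts of both families were enriched in the RIP and none was depleted. By the criterion used throughout, a RIP level 2-fold or more over the input (log2 fold change 1 or higher) with an unadjusted p under 0.05 in edgeR's quasi-likelihood test, 19 of the 67 members (28.4%) were enriched, where 9.43% of the 13632 genes tested were. No member was depleted by the mirrored criterion, which 17.2% of all genes met. Of the protein-coding genes with transcripts longer than the members' median, 20.5% were enriched and 3.48% depleted. With a trend on length and GC content taken out of every gene, 5 of the 67 members were enriched and 1 was depleted. The shares of all genes in that fit were 9.16% and 11.1%, so the members' excess of enriched genes was not seen there. Among USPs, 12 of 45 were enriched (26.7%) and among HECT ligases 7 of 22 (31.8%). The unadjusted criterion makes no allowance for the number of genes tested, so the p values printed for single genes are those after Benjamini-Hochberg adjustment over all genes in that test. Where a value stands in brackets before such a p it is the log2 fold change, and levels are given for replicates 1 and 2 of the input, then of the RIP. At an adjusted p below 0.05, 3 members were higher in the RIP (Usp31, Nedd4 and Ube3c) and 0 were lower, against 3.48% and 9.78% of all genes. At an unadjusted p below 0.05 with no minimum on the fold, the count of lower members was also 0, a count not made over all genes. DESeq2 gave 0 lower members at its adjusted threshold, beside 6.24% of all genes in that fit.

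The direction was mostly upward, without being uniform. The fitted fold change was above 0 for 50 members and below 0 for 17, from -0.92 for Usp8 to 2.44 for Usp31. Over all genes tested, 6558 were above 0 and 7074 below. The median log2 fold change was 0.54 for all members, 0.56 for the USPs and 0.54 for the HECT ligases, beside -0.05 over all genes tested. Both RIP libraries lay above both inputs for 37 members (55.2%; 29.6% of all genes), and both lay below for 3 (4.48%; 31.3% of all genes). The remaining 27 members had overlapping values. With 2 libraries a group, an exact two-sided permutation test of a single gene cannot go below p = 0.333, so the tests rest on the spread shared across genes.

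**Figure D1:**
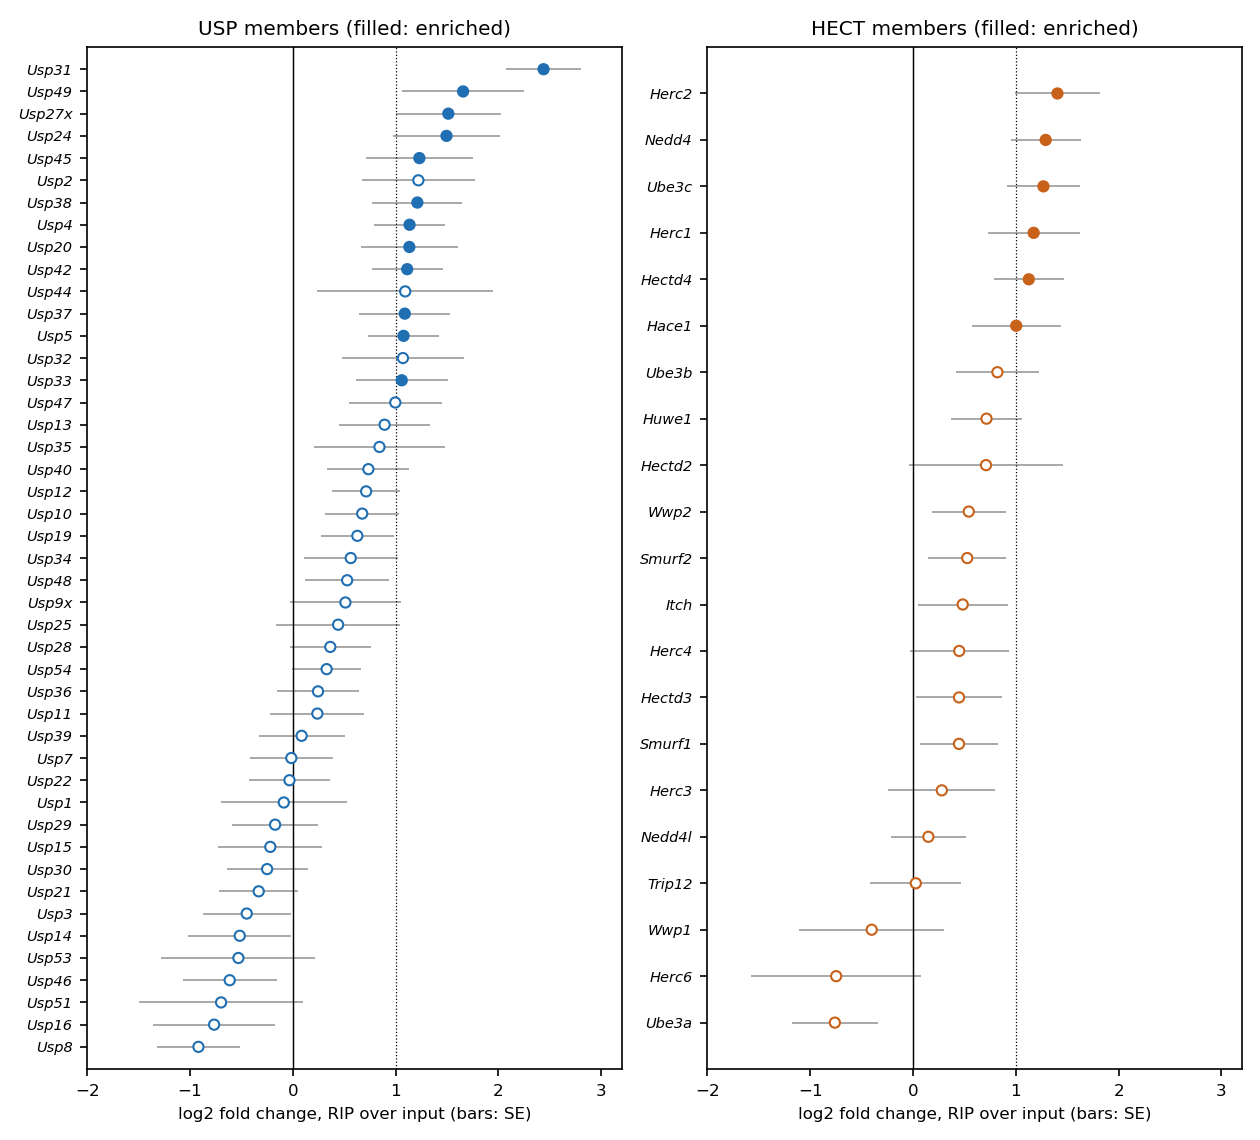
Fitted log2 fold change of RIP over input (x axis) for the 45 USPs (left) and 21 of the 22 HECT ligases (right) tested, with bars of 1 standard error, filled points for enriched members and a dotted line at 1. Usp31 stands apart at 2.44, and the lowest points, Usp8 and Usp16 on the left and Ube3a and Herc6 on the right, lie between -0.92 and -0.75.

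The inputs were less alike than the RIP libraries. Input 2 was from 0.443 to 6.03 times input 1 in CPM (counts scaled to library size and by the trimmed mean of M-values, TMM), and 26 members had inputs more than 2-fold apart, while 1 member (Usp44) had its RIP libraries that far apart. The number of enriched members was 11 without input replicate 1 (12.3% of all genes in the same fit), 30 without input replicate 2 (15.03% of all genes), 4 without RIP replicate 1 (4.52%) and 4 without RIP replicate 2 (4.65%), where the remaining lone library was assumed to vary like the other group. With the replicate number as a block, 6 members (Herc2, Ube3c, Usp24, Usp31, Usp32 and Usp49) passed the adjusted threshold upward, beside 5.29% of all genes, and Nedd4 did not (adjusted p = 0.0696).

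Among the USPs of endosomal, receptor and axon signalling, 3 of the 12 tested members were enriched (Usp31, Usp20 and Usp33), the median log2 fold change was 0.69, and 9 values were above 0. Usp31, a USP studied mainly in NF-kappaB signalling (ENSMUSG00000063317, chr7:121642021-121707253, minus strand), was counted 130 and 195 times in the inputs, then 675 and 607 times in the RIP libraries. In CPM these were 3.90 and 5.68 against 26.8 and 25.2, so the groups stood apart with no overlap. Its log2 fold change was 2.44 ± 0.366 (SE, 2 libraries a group), 5.42-fold, with an adjusted p of 0.00459 in edgeR's quasi-likelihood test. That placed it 87th of all genes tested by fold change, and its log2 fold change was between 2.19 and 2.73 when any 1 library was left out. Its adjusted call, like those of Nedd4 and Ube3c, was lost when either RIP library was left out.

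Usp20 and Usp33 are close relatives first described through their binding to the von Hippel-Lindau protein, and Usp33 also deubiquitinates the guidance receptor Robo1. Usp20 was at 3.06 and 1.43 CPM in the inputs and 4.28 and 5.57 CPM in the RIP libraries (log2 fold change 1.13, adjusted p = 0.147). Usp33 was at 1.80 and 3.61 CPM against 6.18 and 5.11 CPM (1.06, adjusted p = 0.153). Neither gene overlapped between groups. With same-numbered libraries set against each other, the log2 ratio of Usp20 was larger in replicate 2 (1.96, against 0.48 in replicate 1). That of Usp33 was larger in replicate 1 (1.78, against 0.50). In both genes the larger ratio fell where the input was lower, and the inputs differed by a larger factor than the RIP libraries. Usp2, a deubiquitinase of cyclin D1, and Usp32, of late endosomes, exceeded a log2 fold change of 1 without meeting the p criterion (1.22, adjusted p = 0.176, and 1.07, adjusted p = 0.264).

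Not every member of the endosomal group had a higher value in the RIP. Usp8, which acts on internalised growth factor receptors, was at 3.96 and 5.68 CPM in the inputs and 2.85 and 2.25 CPM in the RIP libraries. Both RIP values were below both inputs, with a log2 fold change of -0.92 ± 0.406 (SE) and adjusted p = 0.171. Usp46, a deubiquitinase of AMPA receptor subunits, was at 2.13 and 3.79 CPM against 1.66 and 2.20 CPM, with overlap (-0.61, adjusted p = 0.41). Its paralog Usp12, which shares the activator Wdr48, had a value on the other side of 0: 7.62 and 7.26 CPM in the inputs and 12.1 and 12.3 CPM in the RIP libraries (0.71, adjusted p = 0.189). Usp9x, known for its part in neuronal growth and axon extension, was at 4.05 and 14.4 CPM in the inputs and 12.1 and 14.2 CPM in the RIP libraries. Its inputs alone spanned the RIP values (0.51, adjusted p = 0.571), and without input replicate 1 its log2 fold change was -0.13.

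The histone and chromatin USPs were divided, with 3 of 12 enriched, 7 of 12 values below 0 and a median log2 fold change of -0.02. Usp49, a histone H2B deubiquitinase, was at 0.84 and 2.86 CPM in the inputs and 4.24 and 7.44 CPM in the RIP libraries (1.66, adjusted p = 0.102). Usp27x, an X-linked relative of Usp22, was at 0.69 and 0.641 CPM against 1.94 and 1.87 CPM (1.51, adjusted p = 0.0877), with nearly equal log2 ratios in the replicates (1.49 and 1.54) on few counts (23 and 22 in the inputs, 49 and 45 in the RIP). Usp42, at 6.15 and 5.36 CPM against 13.7 and 11.2 CPM, had a log2 fold change of 1.11 (adjusted p = 0.0686). In each of these 3 genes the RIP libraries lay above both inputs, and leaving out input replicate 1 or 2 moved the log2 fold change of Usp49 to 1.03 or 2.78.

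Usp22 and Usp7, the best known members of the chromatin group, had fold changes near 0. Usp22, the deubiquitinase of the SAGA coactivator complex, had the most input counts of the group, 1134 and 610, beside 619 and 628 after RIP. In CPM, 34.0 and 17.8 in the inputs enclosed 24.5 and 26.1 in the RIP (-0.03, adjusted p = 0.965). Usp7, which stabilises Mdm2 and p53, was at 5.70 and 10.8 CPM against 7.69 and 8.69 CPM (-0.01, adjusted p = 0.985). In both genes the replicates gave log2 ratios of opposite sign. Usp16 and Usp3, both acting on histone H2A, had log2 fold changes of -0.77 (adjusted p = 0.425) and -0.45 (adjusted p = 0.525). Usp51, the third SAGA-linked paralog beside Usp22 and Usp27x, had few counts, 13 and 23 as input and 7 and 9 after RIP (-0.70, adjusted p = 0.607).

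Of the USPs of genome maintenance and the cell cycle, 3 of 8 tested members were enriched and the median log2 fold change was 0.76. Usp24, a large USP of the DNA damage response, was at 1.41 and 4.11 CPM in the inputs and 7.93 and 7.65 CPM in the RIP libraries (1.49, adjusted p = 0.0926). Usp45, which acts on the nuclease subunit Ercc1, was at 0.78 and 1.98 CPM against 3.09 and 3.41 CPM (1.23, adjusted p = 0.153). Usp37, a deubiquitinase of cyclin A, was at 3.39 and 7.78 CPM against 11.9 and 11.9 CPM (1.09, adjusted p = 0.14). These 3 genes share a pattern: the RIP libraries matched closely, input 2 was 2.30 to 2.91 times input 1, and the log2 ratio was larger in replicate 1 (1.81 to 2.49) than in replicate 2 (0.62 to 0.90). Usp47 stood just outside the fold limit at 0.997 (adjusted p = 0.181), and Hace1 just inside it at 1.004. Usp1, which deubiquitinates Fancd2 and Pcna, was the member whose inputs were among the least alike, at 4.20 and 20.0 CPM, with 12.5 and 10.3 CPM in the RIP libraries between them (-0.09, adjusted p = 0.94).

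In the small USP groups, 3 more members were enriched, all with RIP values above both inputs. Usp5, which takes apart unanchored ubiquitin chains, was at 5.34 and 4.66 CPM in the inputs and 10.4 and 10.7 CPM in the RIP libraries (1.08, adjusted p = 0.0739), whereas Usp14, bound to the proteasome, was at 1.56 and 3.44 CPM against 1.63 and 1.87 CPM (-0.52, adjusted p = 0.533). Usp4, of the Wnt, TGF-beta and splicing group, was at 5.49 and 4.58 CPM against 11.0 and 11.1 CPM (1.14, adjusted p = 0.0638). Its paralog Usp15 had a log2 fold change of -0.22 (adjusted p = 0.816), and Usp34, which acts on axin, was at 6.18 and 15.7 CPM against 17.6 and 14.8 CPM, with overlap (0.56, adjusted p = 0.451). Usp38, grouped under innate immunity, was at 1.38 and 2.39 CPM against 4.88 and 3.87 CPM (1.21, adjusted p = 0.104), while Usp25 of that group was at 0.81 and 3.002 CPM against 2.89 and 2.29 CPM (0.44, adjusted p = 0.672). None of the 3 membrane-anchored USPs was enriched: Usp19 of the endoplasmic reticulum was at 0.63, Usp35 at 0.84 and the mitochondrial Usp30 at -0.25 in log2 fold change, the last with 7.56 and 4.95 CPM as input, overlapping 5.95 and 4.57 CPM after RIP. Usp40, the one tested member of the less studied group, was at 2.55 and 3.35 CPM against 5.67 and 4.16 CPM, without overlap (0.73, adjusted p = 0.253).

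**Figure D2:**
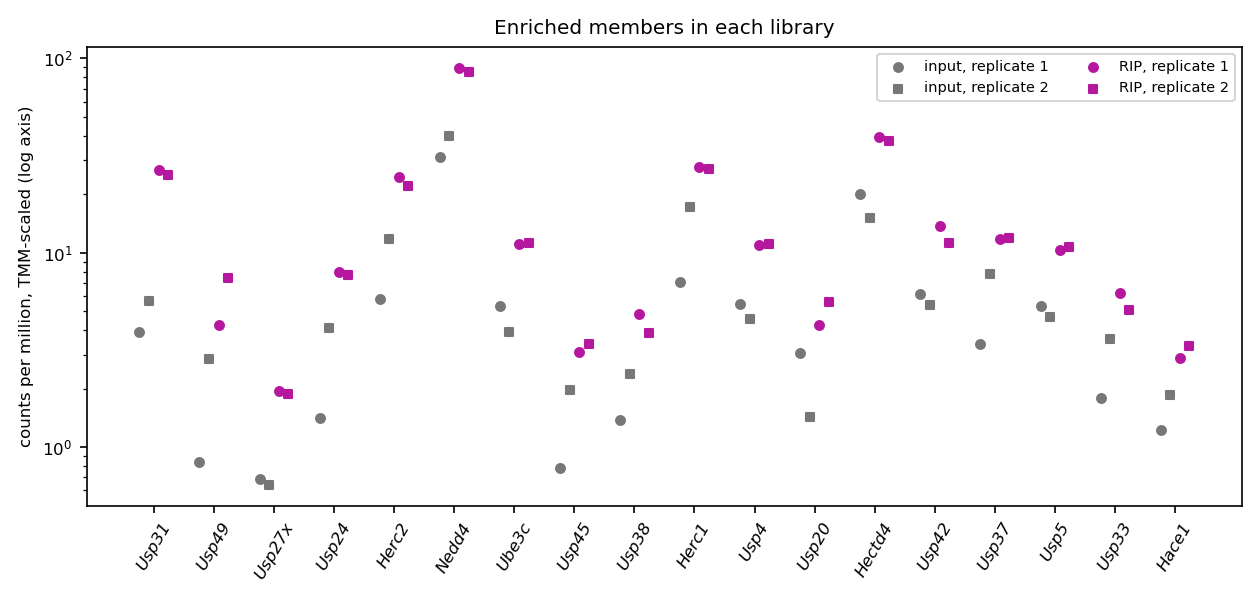
TMM-scaled CPM (log axis) of 18 of the 19 enriched members in each of the 4 libraries, grey for input and magenta for RIP, circles for replicate 1 and squares for replicate 2, ordered by fold change. In each gene both magenta points lie above both grey points, and the grey points are usually the pair that lies farther apart.

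Within the HERC ligases, which join RCC1-like repeats to a HECT domain, both giant members were enriched and the 3 small ones were not. Herc2, which takes part in DNA repair and binds Ube3a, was at 5.76 and 11.8 CPM in the inputs and 24.6 and 22.0 CPM in the RIP libraries. Its log2 fold change was 1.41 ± 0.415 (SE), with an adjusted p of 0.0584 that missed the threshold. Herc1, active in membrane traffic, was at 7.08 and 17.2 CPM against 27.8 and 27.1 CPM (1.17, adjusted p = 0.121). The groups did not overlap in either gene. Herc4, Herc3 and Herc6, the last a ligase for the ubiquitin-like ISG15 in mouse, had log2 fold changes of 0.45, 0.28 and -0.75, with adjusted p from 0.576 to 0.764.

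Nedd4 was the 1 enriched member among 7 in its family of ligases with C2, WW and HECT domains, whose median log2 fold change was 0.48. Nedd4, which ubiquitinates membrane proteins and is needed for normal growth of axons and dendrites (ENSMUSG00000032216, chr9:72662346-72749852, plus strand), held 1039 and 1376 counts as input, rising to 2257 and 2042 in the RIP libraries. In CPM these were 31.2 and 40.1 against 89.5 and 84.9, with no overlap. The log2 fold change was 1.29 ± 0.341 (SE, 2 libraries a group), 2.45-fold, with an adjusted p of 0.0405 in edgeR's quasi-likelihood test, a call lost with the replicate block, with the block and the length and GC trend together, with no filter on low counts, and without either RIP library. Its paralog Nedd4l, a regulator of the epithelial sodium channel, was at 4.62 and 4.90 CPM against 5.15 and 5.40 CPM. Although its values did not overlap, the log2 fold change was 0.15 (adjusted p = 0.824). Itch, Smurf1, Smurf2 and Wwp2, which act in immune and TGF-beta signalling, ranged from 0.45 to 0.54, none with an adjusted p below 0.353. Wwp1 was at 0.87 and 5.25 CPM in the inputs, the members' widest input gap, and at 2.18 and 2.45 CPM in the RIP libraries (-0.40, adjusted p = 0.751).

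The other HECT ligases had 4 of 10 members enriched and a median log2 fold change of 0.77. Ube3c, which extends ubiquitin chains at the proteasome (ENSMUSG00000039000, chr5:29569242-29676092, plus strand), drew 177 and 135 input counts beside 280 and 269 from the RIP. In CPM, 5.31 and 3.93 stood against 11.1 and 11.2, apart from each other in both replicates. Its log2 fold change was 1.27 ± 0.357 (SE), 2.41-fold, and its adjusted p of 0.049997 in edgeR's quasi-likelihood test was barely under the threshold. The call was lost under most alternatives: no filter on low counts, a stricter filter of 10 counts in each library, TMM factors computed without small RNA and mitochondrial genes, both limma fits on FPKM, the length and GC trend with or without the block, and without either RIP library. Hectd4 was at 20.1 and 15.2 CPM against 39.4 and 37.6 CPM (1.13, adjusted p = 0.0631). Hace1, which targets the GTPase Rac1, was at 1.23 and 1.87 CPM against 2.89 and 3.33 CPM (1.004, adjusted p = 0.163).

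The 3 Ube3 genes had fold changes on both sides of 0. Ube3b, whose loss causes a brain and eye syndrome, was at 20.8 and 10.6 CPM in the inputs and 28.8 and 26.7 CPM in the RIP libraries (0.82, adjusted p = 0.209). Ube3a was at 2.88 and 4.55 CPM against 2.18 and 2.20 CPM, the only HECT ligase with both RIP libraries below both inputs, at a log2 fold change of -0.76 ± 0.419 (SE, adjusted p = 0.261). Ube3a is overlapped on the opposite strand by the noncoding Snhg14, counted 32 and 107 times in the inputs and 49 and 67 times in the RIP, and whether the counting used strand is not given in the sources used here. Huwe1, a ligase for Mcl1 and N-Myc, was at 24.1 and 33.3 CPM against 50.2 and 44.1 CPM, without overlap (0.72, adjusted p = 0.205). Trip12, of the ubiquitin fusion degradation pathway, was at 9.12 and 22.3 CPM against 15.9 and 16.1 CPM, its RIP values between the inputs (0.03, adjusted p = 0.974).

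The authors' FPKM values, which are scaled for gene length, place most members below 1 FPKM in the inputs, near the level of other long genes. The median of the members' mean input level was 0.411 FPKM, with 8 members at 1 FPKM or more, 55 from 0.1 to 1 and 9 below 0.1. Over the 67 members tested it was 0.438 FPKM. The same median was 0.633 FPKM over all genes tested and 0.418 FPKM over protein-coding genes longer than the members' median transcript. Usp22 was highest (5.59 and 3.30 FPKM in the 2 inputs), followed by Usp1 (0.888 and 4.88 FPKM), Nedd4 (2.28 and 3.32 FPKM) and Ube3b (3.16 and 1.82 FPKM). Then came Usp21, Usp12, Usp39 and Huwe1, from 1.44 to 1.05 FPKM in mean. Of the neighbours among these 8, only Ube3b and Usp21 did not overlap. Usp22 also lay wholly above Ube3b, and Usp12 wholly above Huwe1. Usp31, for all its fold change, was at 0.302 and 0.499 FPKM in the inputs, and at 3.08 and 2.17 FPKM in the RIP libraries.

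The remaining 5 members had too few counts to test, and none can be compared. Usp9y and Usp26 had 0 counts in all 4 libraries. Usp18, which removes ISG15 and is induced by interferon, had 3 counts in 1 input and 0 elsewhere. Usp43 had 3 counts in 1 input and 10 in 1 RIP library, and Usp50 had 40 in input 1 alone, within a locus that overlaps Usp8 on the opposite strand. Near-identical stretches of Usp9x and Usp9y, or of Usp22, Usp27x and Usp51, could divide or lose reads between copies, and 48 members overlap another annotated gene, so values of such genes are uncertain.

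Replicate 1 gave larger ratios than replicate 2. The median log2 ratio of RIP to input was 0.94 in replicate 1 and 0.37 in replicate 2, with 0.92 and 0.37 for the USPs and 0.96 and 0.33 for the HECT ligases. Ratios were above 0 in both replicates for 40 members, below 0 in both for 7 and of opposite sign for 20. A log2 ratio of at least 1 was reached by 30 members in replicate 1, by 11 in replicate 2 and by 7 in both. Such counts were not made over all genes tested, whose median log2 ratios were -0.003 in replicate 1 and -0.013 in replicate 2. Input 2 was above input 1 in 46 of the 67 members. The median ratio of input 2 to input 1 was 1.52 over members and 0.887 over all genes tested. Across members, the ratio of input 2 to input 1 was lower at higher GC content (Spearman's rho -0.72 over 67 members, and -0.60 over protein-coding genes, which share the same 2 libraries), so the inputs differed along base composition.

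**Figure D3:**
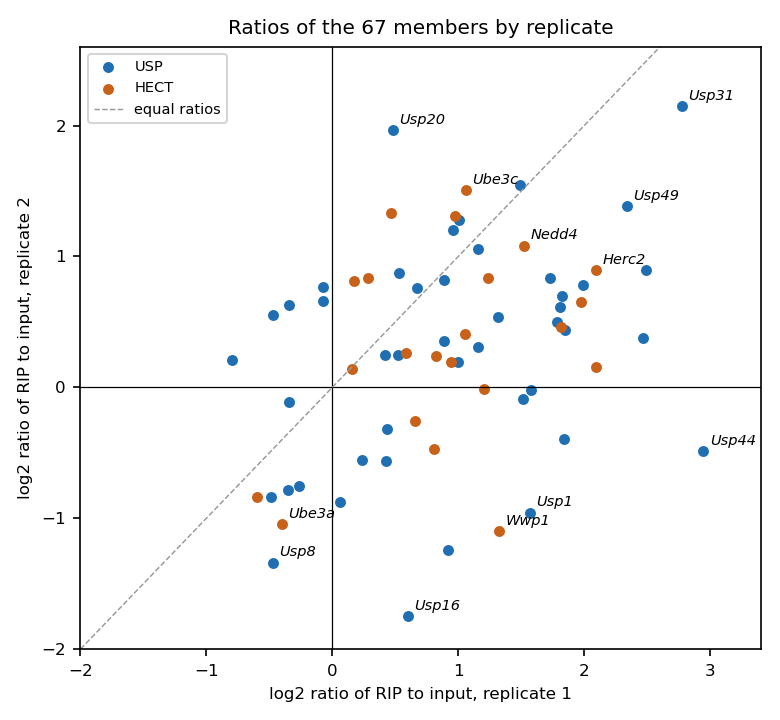
Log2 ratio of RIP to input in replicate 1 (x axis) and replicate 2 (y axis) for the 67 members tested, blue for USPs and orange for HECT ligases, with a dashed line of equal ratios. Most points lie right of 0 and under the dashed line, Usp31 is at the far upper right, and Usp1, Wwp1 and Usp16 are positive in replicate 1 and negative in replicate 2.

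Members are long transcripts, and long transcripts had higher RIP values in these libraries as a whole. The median length of the longest protein-coding transcript was 5049 nt for members and 3339 nt for all protein-coding genes tested, and fold change and length had a Spearman's rho of 0.49 across protein-coding genes and 0.21 across members. Among the 2789 protein-coding genes longer than 5049 nt, 20.5% were enriched, 3.48% were depleted and the median log2 fold change was 0.52. Of the 33 members of that length, 12 were enriched (36.4%), with a median of 0.72. Of the 34 members up to 5049 nt, 7 were enriched (20.6%) with a median of 0.45, beside 7.18% and a median of -0.15 over protein-coding genes of that length. With a trend on length and GC content taken out of every gene, 5 members were enriched (Usp31, Usp27x, Usp45, Usp33 and Hace1), beside 9.16% of all genes, and 1 was depleted (Usp8), beside 11.1%. The members' median was then 0.28, with 0.32 for the USPs and 0.20 for the HECT ligases, and that of all genes 0.02. Usp31 was at 1.87 on that scale and Usp8 at -1.08. Among the HECT ligases, fold change was lower with longer 3′ UTRs (rho -0.56 over 22 genes, beside 0.16 over 45 USPs and 0.32 over protein-coding genes), with the lowest value at Ube3a, whose 3′ UTR is the longest of the HECT members at 6606 nt. This was the largest in size of several correlations computed for the HECT ligases, with no allowance for that search. Those with coding length (0.46) and GC content (0.47) were nearly as large.

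**Figure D4:**
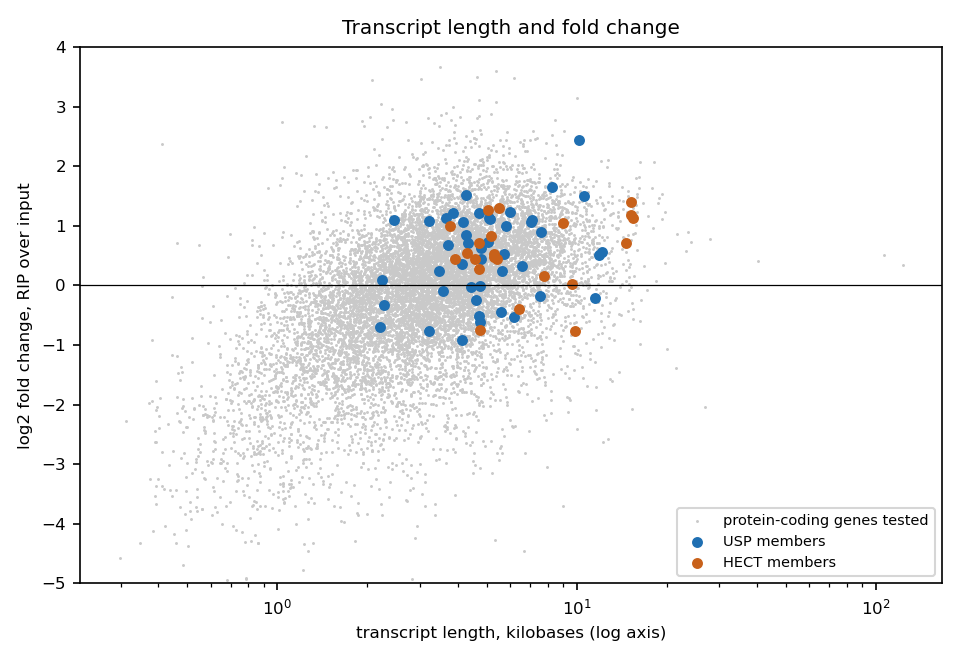
Log2 fold change of RIP over input (y axis) against the length of the longest protein-coding transcript (x axis, log scale) for the protein-coding genes tested in grey, the USPs in blue and the HECT ligases in orange, with 56 genes outside the plotted range. The grey cloud climbs with length, the members lie in its longer part, and Usp31 is the highest member at 2.44.

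Other genes of the ubiquitin system, taken from 9 lists, spread widely around 0. Of their 77 tested genes, 7 were enriched (9.09%) and 14 depleted (18.2%), near the shares of all genes (9.43% and 17.2%), with a median log2 fold change of 0.12. Genes of the same folds outside the naming rule had medians of 0.59 (4 other HECT ligases) and 0.54 (3 USP-fold genes), and none was enriched. The 3 USP-fold genes were grouped by fold, and not all of them are ubiquitin proteases. RBR ligases, which combine RING and HECT-like mechanisms, had 3 of 14 enriched and 0 depleted, led by Rnf144b (1.34). OTU deubiquitinases had 2 of 14 enriched and 1 depleted, from -1.15 for Otub1 to 1.82 for Otud3. By contrast, the list headed JAMM metalloproteases had 6 of 10 depleted and all 10 values below 0, the lowest at Cops6 (-2.08). This list also holds related subunits of the proteasome, the COP9 signalosome and the translation factor eIF3, Cops6 among them. Its values are therefore not those of proteases alone.

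The UCH deubiquitinases had 1 of 4 depleted and a median of -0.50, and the E1 enzymes and ubiquitin genes had 3 of 6 depleted and a median of -0.27. Uchl5, a proteasomal deubiquitinase of the UCH class, was at 1.26 and 2.91 CPM against 0 and 0.291 CPM (fitted value -3.82, which depends on the prior count because 1 library is at 0). Among adaptors and cofactors of the members, 2 of 14 were enriched and 3 depleted, and the extremes were subunits of the SAGA module that holds Usp22: Atxn7 at 1.26 and Eny2 at -3.00. Josephin, MINDY and ZUP1 deubiquitinases had 0 of 8 enriched or depleted. Proteasome subunits and E2 conjugating enzymes, compared as a block of 76 tested genes with a median transcript length of 1887 nt, had 0 enriched, 28 depleted and a median of -0.88, whereas all 6 UBR ligases were above 0 with 2 enriched. The differences between these lists and the members were not tested, and neither was the part of transcript length, whose median ran from 1511 nt for the UCH list and 1744 nt for the JAMM list to 8131.5 nt for the other HECT ligases.

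**Figure D5:**
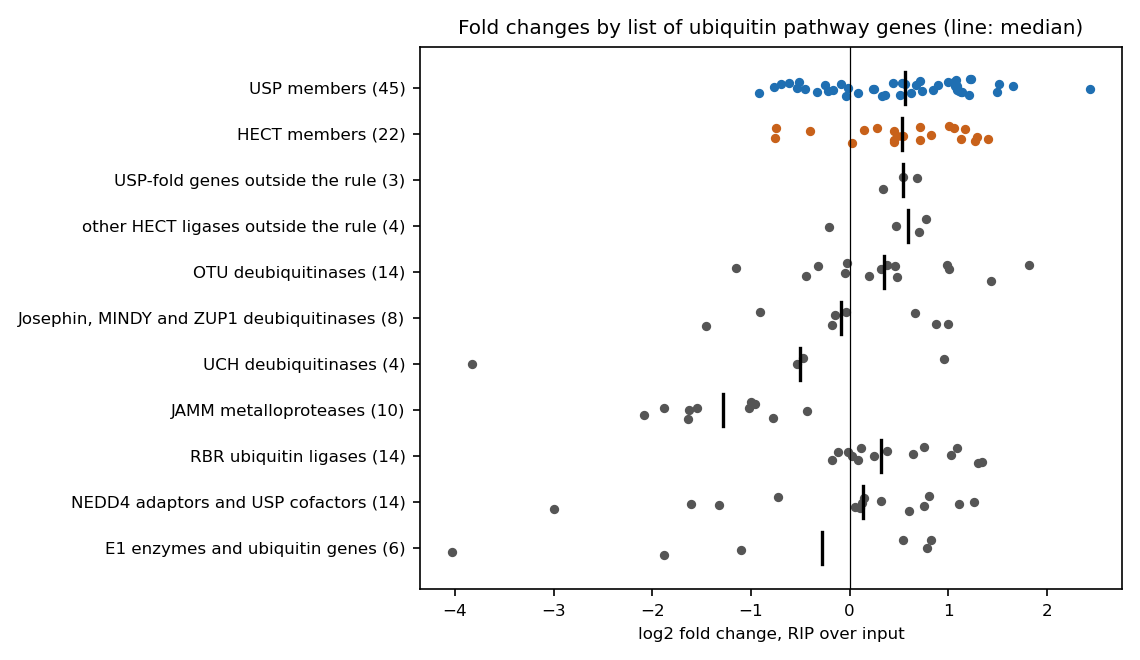
Log2 fold change of RIP over input (x axis) for each tested gene of the USPs (blue), the HECT ligases (orange) and 9 lists of other ubiquitin pathway genes (grey), with the number of genes in brackets and a black line at each median. The USP and HECT medians are 0.56 and 0.54, and that of the list headed JAMM metalloproteases is -1.28, with all of its points left of 0.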

How the data were processed

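Retina RNA was prepared with the EZ-Magna RIP kit and a TruSeq Stranded library kit. The authors deposited a table of raw read counts per gene and one of FPKM values for the same libraries. Per the labels' processing notes, STAR 2.5, HTSeq and GRCm38 were used. Strand setting, annotation release and the making of FPKM are not given in the sources used here. Members and gene lists were chosen with earlier results of these data known.

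Genes were kept by filterByExpr of edgeR 4.0.16 (R 4.3.3; minimum count 10, minimum total 15), which a gene can pass through 1 group alone. Counts were scaled by TMM and RIP was compared with input by the quasi-likelihood test without a replicate block. The design text places an input and an IP in each replicate. However, deviations of same-numbered libraries were not positively correlated over 13632 genes (Pearson's r -0.0282). Full values were set for members past the adjusted threshold, for the member with most input counts in each group where none passed, and for members with known roles in the brain; other genes of the pathway were named where they had the highest or lowest value of their list. DESeq2 1.42.0, limma 3.58.1 on log2 FPKM and a trend on length and GC content (mgcv 1.9.3) served as alternatives. The scripts were tested on simulated data. With 2 libraries a group, p values set each difference against a spread between these libraries that is estimated with information shared across genes. Single values of some genes are not reported here, although the counts and medians include them.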

Additional observations from a re-analysis of the deposited data

How the results depend on the processing

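The direction of the USP and HECT medians did not change under any alternative run. On the log2 scale they ran from 0.28 to 0.94 for the USPs and from 0.20 to 0.96 for the HECT ligases. Each of the 19 enriched members stayed above 0 in every setting that tested it. Those 19 were chosen from these same libraries, and all had both RIP values above both inputs. Their sign was thus largely fixed by the choice and adds no support. With the share of all genes called in the same fit in brackets, enriched members numbered 2 with limma on log2(FPKM + 1) (2.66%), 5 with the length and GC trend taken out (9.16%) and 7 with that trend and the replicate block (9.0%), and from 4 to 30 with 1 library left out. With all 4 libraries kept, depleted members numbered 1 with the trend (11.1%) and 1 with the trend and block (10.6%). For the settings that leave out a library, lower members are given by fold change alone. Without input replicate 1, the log2 fold changes of Usp16, Usp53, Wwp1, Usp8 and Ube3a ran from -1.37 to -1.05, past the fold limit for depletion. The absence of depleted members in the main fit therefore depended on that library. Without input replicate 2, those of the same genes ran from -0.64 to 1.40. Members with adjusted p below 0.05 upward numbered 7 with DESeq2 (2.96%), 9 with library size alone (6.2%), 1 with no filter on low counts (1.25%), 6 with the replicate block (5.29%), 6 with the trend (6.4%) and 1 with the trend and block (4.54%), and from 0 to 36 with 1 library left out (0.054% to 18.2%). Downward, with all 4 libraries kept, they numbered 1 with the trend (7.62%). Library size alone gave 28 enriched members (17.3%) and moved the median of all genes from -0.05 to 0.27.

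Signs turned for genes near 0, with library size alone by the shift of all genes. Usp22 was at 0.32 with library size alone, 0.075 with no filter, 0.041 with the replicate block, 0.30 with log2(FPKM + 0.1) and 0.25 with log2(FPKM + 1), and Usp7 at 0.28, 0.044, 0.054, 0.27 and 0.12 in the same order. Nedd4l was at -0.41 with the trend and -0.39 with the trend and block. With 1 library left out, Usp22 ranged from -0.43 to 0.51, Usp9x from -0.13 to 1.69, Usp14 from -0.98 to 0.16 and Usp7 from -0.40 to 0.52. The fold changes of Usp24, Usp45, Herc1, Usp37 and Usp33 were 0.61 to 0.92 without input replicate 1 and 1.64 to 2.46 without input replicate 2, and that of Usp20 was 1.78 and 0.68. Of 286 values for 26 genes outside the settings that leave out a library, 221 kept their side and direction, 53 lost the threshold and 12 turned. The cause was not tested. With 2 inputs that differ along GC content, small differences between members were not resolvable.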
